A study of Mus musculus with 12 samples.

Results

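Neuropeptides are short signalling peptides cut from larger precursors, and dense-core vesicles are the granules in which neurons and endocrine cells process, store and release them. The genes described here are a list of 40. Of these, 10 build or serve the vesicle, namely the granins and the processing enzymes with their regulators, and the rest are peptide precursors of several brain systems with 1 peptide-binding protein. A member counted as measured when 1 or more groups had a probe of its name well above background on each of their 3 arrays, and the probe with the highest mean was used. This held for 39 of the 40 members, among 26495 genes measured in all. Qrfp, a hypothalamic feeding peptide gene, had 1 probe, which was above background on 1 of the 12 arrays, and is not described further.

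The study hybridised whole-brain total RNA of untreated BALB/c mice to one-colour Agilent arrays, with 3 mice and 3 arrays in each of 4 groups. The groups were 6-week-old interleukin-18 knockout mice, 6-week-old wild-type mice, 12-week-old interleukin-18 knockout mice and 12-week-old wild-type mice. Interleukin-18 is an inflammatory cytokine released after inflammasome activation. How the knockout was made, how far it was backcrossed to BALB/c, and the sex, litter and hour of sampling of the mice are not given in the sources used here.

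A neuropeptide gene encodes a prohormone that enters the secretory pathway, is sorted into a dense-core vesicle and is cut at pairs of basic residues by prohormone convertases, after which carboxypeptidase E trims the ends. Granins are acidic proteins that condense inside the vesicle, help to form it, and are themselves cut into peptides. In whole brain, oxytocin, vasopressin, hypocretin and melanin-concentrating hormone are made by small hypothalamic cell groups, while cholecystokinin, neuropeptide Y and somatostatin are made by many cortical and limbic neurons. In whole-brain RNA, fewer cells of a type and less RNA per cell cannot be told apart.

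All values are log2 signal relative to the 75th percentile of the same array, so a difference of 1 is a doubling, and they were compared between groups for a given probe only. Errors after ± are standard errors from limma unless called SD, with 3 arrays per group, and a member was called when its Benjamini-Hochberg adjusted p over all 26495 genes was under 0.05. The Il18 probe (mm9 chr9:50389761-50389820) had values of -0.32 to -0.17 in the 6 knockout brains, against 1.51 to 1.93 in the 6 wild-type brains, so the groups lay apart at both ages. That probe was above background on all 12 arrays, knockouts included. The Y-linked gene Ddx3y was above background on all 12 arrays, and the Xist probes on at most 1. Between 65.9% and 76.2% of an array's non-control spots were above background. The range was 65.9% to 68.1% in the 12-week knockouts and 66.8% to 76.2% in the 12-week wild types. Before scaling, an array's median intensity was 74.5 to 80.1 in the 12-week knockouts and 95.1 to 105.7 in the 12-week wild types. The file headers place the arrays on 2 slides: slide 2 held 6-week knockout replicate 3 with the 3 arrays of 12-week knockouts, and slide 1 the other 2 of the 6-week knockouts with the 6 wild types. At 12 weeks slide and genotype coincide, so no value within a slide exists for that comparison, and a fit with slide as a block takes the slide effect from the 6-week knockout group alone, 1 array against 2. Changes of the called members at 12 weeks are given with that fit beside them, while those of other genes are without it.

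The class with the most called genes was that of the vesicle and its processing enzymes, in the 12-week knockouts. Of the 10 granins and processing genes, 8 rose in knockout against wild type at 12 weeks and none fell, with a median log2 change of 0.57 over the 10. Over all members 18 of 39, or 46.2%, were called, all 18 higher in knockout. Over all genes 33.0% were called at 12 weeks, 18.5% upward and 14.5% downward. Those are 4893 genes higher and 3848 lower in knockout, a split that was 7386 and 2015 with arrays scaled to their median, which moved the median of all genes to 0.14. The median change was 0.30 over the 39 members and 0.02 over all genes. With slide as a fixed block limma called none of the 39 members and 30 genes in all, 1 member had an unadjusted p under 0.05, and the median change was 0.07 over the members and 0.17 over the granin and processing class. With slide as a random block no member was called either, 12 had an unadjusted p under 0.05, and the medians were 0.23 and 0.39.

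Vgf, a granin-like precursor induced by neurotrophins and activity, had values of 6.11, 6.13 and 6.17 in the 12-week knockouts, against 5.38, 5.36 and 5.29 in the 12-week wild types. The 3 knockout arrays lay above all wild-type arrays, and above all 6-week arrays of either genotype. The change was 0.80 ± 0.12, a 1.74-fold difference (limma adjusted p = 0.00474; probe at mm9 chr5:137509153-137509212). The block on slide gave 0.34 ± 0.13 (adjusted p = 0.601).

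Chga, chromogranin A, which drives granule formation in endocrine cells, had values of 5.60, 5.72 and 5.63 in the 12-week knockouts and 4.92, 5.04 and 5.05 in the 12-week wild types. The groups lay wholly apart. The change was 0.65 ± 0.12 (limma adjusted p = 0.00663). With slide as a block it was 0.18 ± 0.12. Scg2, secretogranin II, the precursor of secretoneurin, had 5.61, 5.67 and 5.53 in knockout and 5.01, 5.04 and 4.98 in wild type, again with no overlap. Its change was 0.59 ± 0.10 (limma adjusted p = 0.00578; 0.24 with slide as a block). The last of the called granins was Chgb, chromogranin B, with a smaller change of 0.22 ± 0.07 (limma adjusted p = 0.0303; 0.04 with slide as a block, and -0.11 with quantile normalization).

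Both prohormone convertases and a regulator of each were called. Pcsk1, the convertase that makes the first cuts in most prohormones, had values of 0.20, 0.37 and 0.16 in the 12-week knockouts, against -0.56, -0.31 and -0.58 in the 12-week wild types. Every knockout array was above every wild-type array, and the change was 0.73 ± 0.13 (limma adjusted p = 0.00599; 0.29 with slide as a block). Pcsk1n, which encodes proSAAS, an inhibitor of Pcsk1, had 6.85, 6.91 and 6.76 in knockout and 6.24, 6.08 and 6.20 in wild type. That is a change of 0.67 ± 0.15 (limma adjusted p = 0.0103), which became 0.03 in the slide-blocked fit. Pcsk2, the convertase of later cuts, changed by 0.55 ± 0.12 (limma adjusted p = 0.00906; 0.17 with slide as a block) at the probe used, but by -0.06 ± 0.07 at a second probe above background on all 12 arrays (adjusted p over all probes = 0.553). Scg5, the 7B2 chaperone that Pcsk2 needs to mature, rose by 0.30 ± 0.08 (limma adjusted p = 0.0187). Its 12-week arrays read 5.65, 5.70 and 5.56 in knockout and 5.25, 5.31 and 5.45 in wild type, and lay apart. The change was 0.18 with slide as a block.

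The other members of the class were not called at 12 weeks. Scg3, which tethers chromogranin A to the vesicle membrane, gave 0.13 ± 0.08 (limma adjusted p = 0.251). Cpe, carboxypeptidase E, gave 0.03 ± 0.06 at the probe used (limma adjusted p = 0.731), and 0.18 ± 0.07 and -0.31 ± 0.12 at 2 further probes, neither of which passed over all probes (adjusted p = 0.0713 and 0.0724). Under quantile normalization the used Cpe probe was called lower in knockout, at -0.47 ± 0.12 (limma adjusted p = 0.0167).

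**Figure D1:**
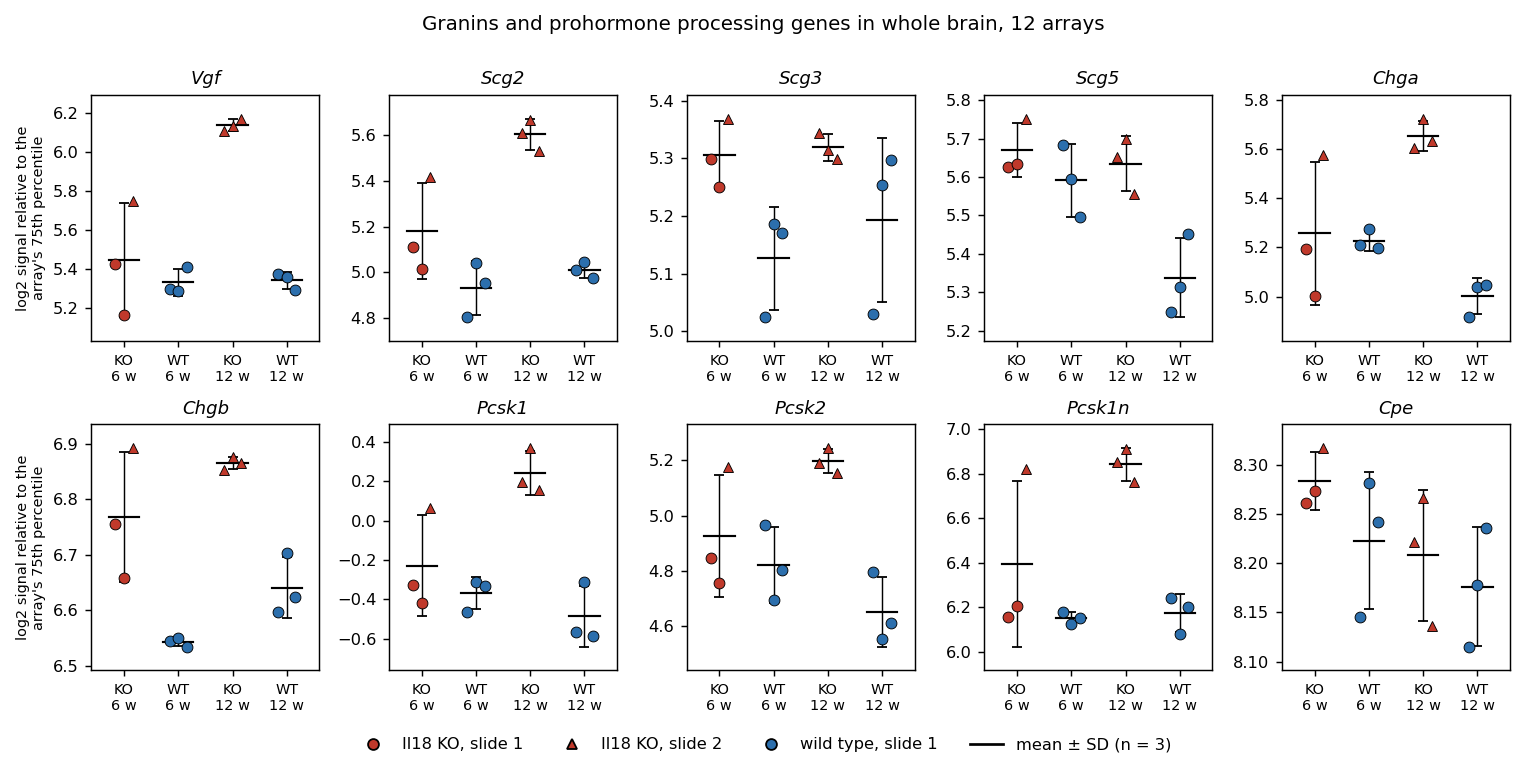
Log2 signal relative to the array's 75th percentile for the 10 granin and processing genes, 1 panel per gene with its own vertical axis, in 6-week knockout, 6-week wild-type, 12-week knockout and 12-week wild-type brains. Points are single arrays, circles for slide 1 and triangles for slide 2, with the mean and SD of 3 arrays; 6-week knockout replicate 3, the triangle in the first column, is above the 2 circles beside it in all 10 panels.

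The 6-week knockout group shows the same genes on both slides in mice of the same age and genotype. Its replicate 3, on slide 2, was above replicates 1 and 2 on slide 1 for 10 of 10 granin and processing genes, for 31 of 39 members (79.5%) and for 16 of the 18 members called at 12 weeks, against 49.5% of all genes. The median difference between the slides in that group was 0.36 for the granin and processing class, 0.30 for the members and 0.07 for all genes. Within slide 2, the 12-week knockouts exceeded 6-week knockout replicate 3 by a median of 0.02 in the class and 0.02 over the members, against -0.05 over all genes. For Vgf the slide difference was 0.45 and the 12-week knockouts were a further 0.39 above it, and for Crh these were 0.54 and 0.31. For Pcsk1n, with 0.64 and 0.02, and Npy, with 0.59 and -0.10, the 12-week knockouts lay close to the 6-week array on the same slide. With 1 array of that age on slide 2, an animal and a slide cannot be told apart.

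Promoters were read because several members are known targets of cyclic AMP signalling. The part of that signalling in the members' values was not tested. The sequence searched was TGACGTCA, the cyclic AMP response element, which is its own reverse complement, so 1 search covers both strands. It occurred in the window of 250 bases before to 50 after the start in 6 of the 33 members with a promoter in the RefSeq table (18.2%). Of all 32851 promoters there 588 held it (1.79%). The members were counted per gene and the whole table per promoter, over 27025 genes, so the units differ. Among the members called at 12 weeks that have a promoter in the table, 4 of 15 hold it, namely Scg2, Pcsk1, Chgb and Cartpt. Among those not called 2 of 17 hold it, Sst and Ucn, with Qrfp, which was not tested, as the remaining promoter. The other 7 members had no promoter there and were not searched. They are Vgf, Crh and Pnoc, which were called, and Agrp, Grp, Cpe and Gnrh1, which were not. The list was drawn up with results of these data known, so the share is a description, and a match of letters is no proof of a site. The 250 bases before the start of the 4 called genes are shown in full, in lower case with the element in capitals, 5′ to 3′ on the gene's strand, build GRCm38.p6, from RefSeq.
Scg2, chr1:79440027-79440276, minus strand: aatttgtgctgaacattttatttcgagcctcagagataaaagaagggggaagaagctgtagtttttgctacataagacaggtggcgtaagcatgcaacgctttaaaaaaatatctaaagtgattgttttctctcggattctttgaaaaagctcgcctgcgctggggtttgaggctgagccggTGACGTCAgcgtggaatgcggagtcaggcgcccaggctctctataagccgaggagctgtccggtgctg
Pcsk1, chr13:75089607-75089856, plus strand: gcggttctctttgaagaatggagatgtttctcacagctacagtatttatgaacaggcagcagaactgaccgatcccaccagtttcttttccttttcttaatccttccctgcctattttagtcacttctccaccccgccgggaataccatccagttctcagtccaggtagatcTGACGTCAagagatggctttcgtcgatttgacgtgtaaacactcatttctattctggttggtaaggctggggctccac
Chgb, chr2:132781392-132781641, plus strand: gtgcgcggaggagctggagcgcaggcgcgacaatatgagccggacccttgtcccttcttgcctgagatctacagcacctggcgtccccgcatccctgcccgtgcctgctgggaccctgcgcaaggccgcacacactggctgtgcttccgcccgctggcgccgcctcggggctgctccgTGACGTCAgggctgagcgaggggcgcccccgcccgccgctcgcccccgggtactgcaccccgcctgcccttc
Cartpt, chr13:99900684-99900933, minus strand: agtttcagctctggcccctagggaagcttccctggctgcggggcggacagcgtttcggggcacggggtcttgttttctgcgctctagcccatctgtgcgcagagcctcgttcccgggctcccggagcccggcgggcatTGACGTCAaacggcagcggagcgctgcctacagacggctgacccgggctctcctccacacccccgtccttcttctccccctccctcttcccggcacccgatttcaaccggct
The centre of the element lies 64 bases before the start in Scg2, 74 in Pcsk1, 68 in Chgb and 108 in Cartpt. Of 15 measured genes of cyclic AMP signalling and its transcription factors, 4 rose and 2 fell at 12 weeks, beside 18.5% and 14.5% of all genes. The median change over the 15 was -0.03. The protein kinase A subunits Prkar1a (0.26 ± 0.07, limma adjusted p = 0.0155) and Prkacb (0.30 ± 0.09, 0.0294) were among those that rose. Adenylyl cyclase Adcy1 fell by 0.35 on the log2 scale (limma adjusted p = 0.00736) and the coactivator Crtc3 fell by 0.21.

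The hypothalamic neurohormones act on the pituitary or are released from it. Of the 7 measured, 2 rose at 12 weeks (28.6%, beside 18.5% of all genes called higher and 33.0% called in either direction). All 7 had a higher mean in knockout, with a median change of 0.30, but with slide as a block Trh, Ghrh and Gnrh1 were lower. Crh, corticotropin-releasing hormone, which starts the stress axis, had values of 1.54, 1.50 and 1.40 in the 12-week knockouts, against 0.76, 0.81 and 0.51 in the 12-week wild types. The knockout arrays lay above all 9 other arrays of the study, and the change was 0.78 ± 0.17 (limma adjusted p = 0.0104; 0.24 with slide as a block). Kiss1, the precursor of kisspeptin, which drives the neurons of gonadotropin-releasing hormone, rose by 0.52 ± 0.13 (limma adjusted p = 0.0142). In the slide-blocked fit it was 0.47 ± 0.24 (adjusted p = 0.664). A second Kiss1 probe gave 0.50 ± 0.15 (adjusted p over all probes = 0.0277).

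Oxt, the oxytocin precursor, had values of 3.22, 3.32 and 3.28 in the 12-week knockouts and 2.73, 2.96 and 2.80 in the 12-week wild types. The groups did not overlap, but the change of 0.44 ± 0.17 did not pass (limma adjusted p = 0.068; 0.31 with slide as a block). Avp, the vasopressin precursor, whose gene lies next to Oxt (probes at mm9 chr2:130406552-130406817 and chr2:130402665-130402724), had 0.92, 1.41 and 1.30 in knockout and 0.72, 1.73 and 0.50 in wild type. The wild-type range enclosed the knockout range, and the change was 0.23 ± 0.32 (limma adjusted p = 0.614). Trh, thyrotropin-releasing hormone, had 2.16, 2.33 and 1.89 in knockout and 2.04, 1.96 and 1.87 in wild type, with overlap (0.17 ± 0.14, limma adjusted p = 0.379). Ghrh and Gnrh1, the releasing hormones of growth hormone and of the gonadotropins, gave 0.19 ± 0.14 and 0.30 ± 0.29. For Gnrh1, 2 of 3 wild-type arrays of each age were above background.

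Among the hypothalamic peptides of feeding and arousal, 2 of 6 rose at 12 weeks (33.3%). Of all genes 18.5% were called higher and 33.0% in either direction. Cartpt, the precursor of the appetite-suppressing CART peptides, rose by 0.43 ± 0.13 (limma adjusted p = 0.0263; 0.36 with slide as a block). Gal, galanin, rose by 0.37 ± 0.12 (limma adjusted p = 0.045), and was -0.09 in the slide-blocked fit. The peptides of the lateral hypothalamus showed overlapping groups. Hcrt, the hypocretin or orexin precursor, which sustains wakefulness, had 2.58, 3.01 and 2.79 in the 12-week knockouts and 2.48, 2.70 and 2.82 in the 12-week wild types (0.12 ± 0.18, limma adjusted p = 0.607). Pmch, the precursor of melanin-concentrating hormone, had 2.57, 2.67 and 2.51 in knockout and 2.53, 2.52 and 2.69 in wild type. Its change was 0.00 ± 0.12, with a 95% interval of -0.26 to 0.27. Agrp, an antagonist of melanocortin receptors that drives feeding, had -2.63, -2.75 and -2.44 in knockout and -2.86, -2.26 and -2.59 in wild type, also overlapping (-0.04 ± 0.26, limma adjusted p = 0.922).

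**Figure D2:**
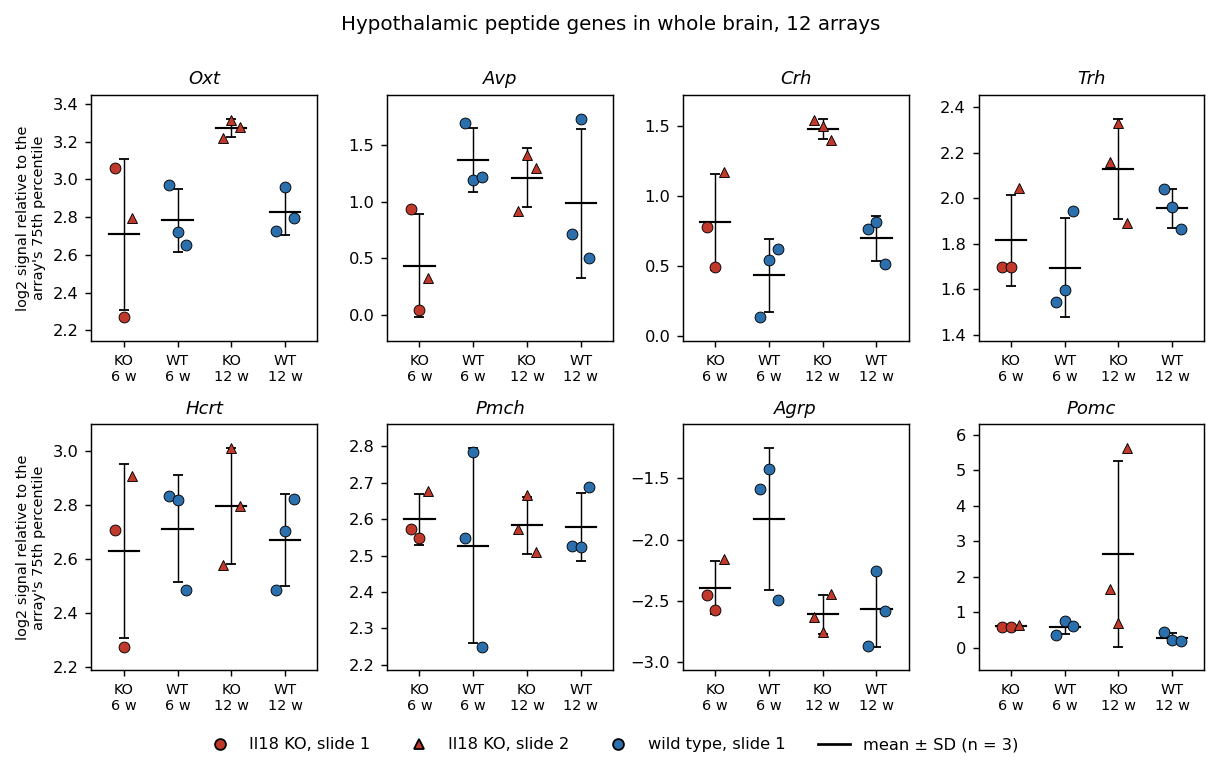
Log2 signal relative to the array's 75th percentile for 8 hypothalamic peptide genes, 1 panel per gene with its own vertical axis, by group from 6-week knockout to 12-week wild type. Points are single arrays (circles slide 1, triangles slide 2) with the mean and SD of 3 arrays; the 12-week knockouts lie above the 12-week wild types for Oxt, Crh and Pomc, and the groups overlap for Avp, Trh, Hcrt, Pmch and Agrp.

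Pomc had the widest spread of the members among the 12-week knockouts. Pomc, the precursor of adrenocorticotropin, melanocortins and beta-endorphin, had values of 1.64, 0.68 and 5.62 in the 12-week knockouts, against 0.43, 0.23 and 0.18 in the 12-week wild types. All 3 knockout arrays were above the wild types, and replicate 3 was far above every other array of the study. The change was 2.37 ± 0.95 (limma adjusted p = 0.0774). It was 0.89 without knockout replicate 3 (adjusted p = 0.0302) and 3.36 without knockout replicate 2 (adjusted p = 0.0271). Outside the 12-week knockouts Pomc lay between 0.18 and 0.75 on all 9 arrays.

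Pomc is also made by the pituitary, and hormone genes of that gland were highest on the same array. On 12-week knockout replicate 3, prolactin (Prl) read 3.72, growth hormone (Gh) 2.86 and the glycoprotein hormone alpha subunit (Cga) 2.23. The next highest array was 12-week knockout replicate 1 for each, at 0.06, -0.48 and -1.94. Over the other 10 arrays Prl ran from -8.37 to -3.88 and Gh from -8.68 to -4.41. Replicate 3 was also the highest array for Fshb (-1.58), Lhb (-2.28), Pitx1 (-3.08) and Tshb (-3.81). Of the 14 pituitary genes listed, 7 passed the filter, of which Crhr1, the first Crh receptor, rose by 0.36 ± 0.08 at 12 weeks (limma adjusted p = 0.0121). Their summed linear signal ran from 26.7 to 32.8 in the 12-week knockouts and 23.0 to 26.6 in the 12-week wild types. It was 23.4 to 29.1 in the 6-week knockouts and 19.8 to 24.8 in the 6-week wild types. Most of this sum came from the Pou1f1 probe used, which was above background on all 12 arrays. A second Pou1f1 probe, not in the sum, was above background on 4 arrays and read -7.11 to -5.24. Whether the sum follows pituitary RNA was not tested. Prl, Gh, Fshb and Tshb were not above background on 3 arrays of any group, and Tbx19 and Gnrhr were on at most 1 array. The part of pituitary RNA in the Pomc result was not tested. Without 6-week knockout replicate 3 and 12-week knockout replicate 3, 19 members were called at 12 weeks, all higher in knockout, beside 33.7% of all genes in the same fit.

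**Figure D3:**
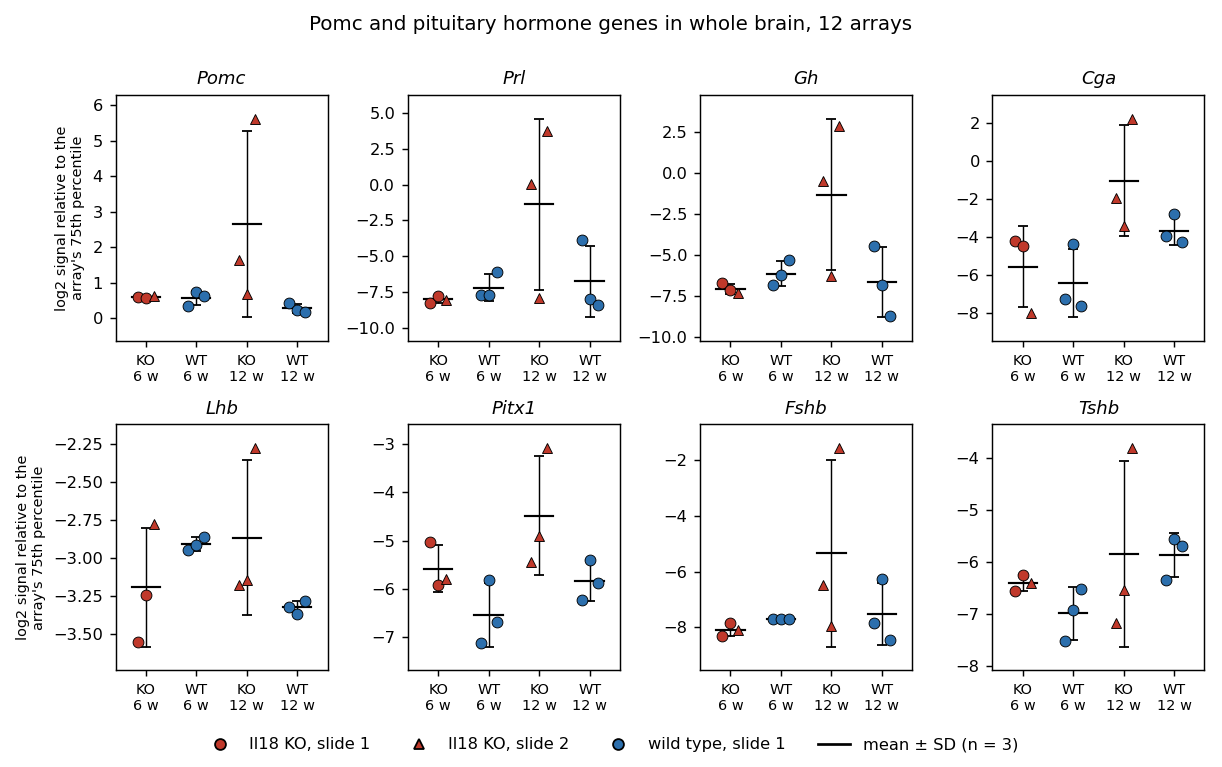
Log2 signal relative to the array's 75th percentile for Pomc and 7 pituitary genes, 1 panel per gene with its own vertical axis, by group from 6-week knockout to 12-week wild type. Points are single arrays (circles slide 1, triangles slide 2) with the mean and SD of 3 arrays; in every panel the highest point is 12-week knockout replicate 3, at 5.62 for Pomc and 3.72 for Prl.

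Peptides of cortical, limbic and widespread neurons rose in 3 of 9 cases at 12 weeks (33.3%). Of all genes 18.5% were called higher and 33.0% in either direction. All 9 had a higher mean in knockout, and with slide as a block Npy, Cort, Adcyap1 and Tac2 were lower. Of 12 markers of cortex and hippocampus, 4 rose and 1 fell, beside 18.5% and 14.5% of all genes, with a median change of 0.22. The summed linear signal of these markers was 47.5 to 50.4 in the 12-week knockouts and 39.95 to 42.7 in the 12-week wild types. Their part in the peptides' values was not tested. Cck, cholecystokinin, a peptide of cortical interneurons and many pyramidal cells, had 7.68, 7.63 and 7.55 in the 12-week knockouts and 6.89, 7.01 and 7.09 in the 12-week wild types. The groups lay apart, with a change of 0.62 ± 0.14 (limma adjusted p = 0.0108; 0.16 with slide as a block). Npy, neuropeptide Y, had 3.23, 3.37 and 3.23 in knockout and 2.69, 2.57 and 2.80 in wild type, also apart (0.59 ± 0.15, limma adjusted p = 0.0147). The slide-blocked change was -0.0019. Pnoc, the nociceptin precursor, rose by 0.27 ± 0.09 (limma adjusted p = 0.0365; 0.08 with slide as a block). Sst (somatostatin), Cort (cortistatin), Vip (vasoactive intestinal peptide), Adcyap1 (the precursor of PACAP), Nts (neurotensin) and Tac2 (neurokinin B) gave changes from 0.07 to 0.28 and did not pass (limma adjusted p from 0.103 to 0.761).

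Of the bombesin-like, relaxin and urocortin peptides with the binding protein Crhbp, 3 of 7 rose at 12 weeks (42.9%). Of all genes 18.5% were called higher and 33.0% in either direction. Nmb, neuromedin B, which acts on smooth muscle and on breathing and itch circuits, had 2.32, 2.43 and 2.11 in the 12-week knockouts and 1.63, 1.21 and 1.39 in the 12-week wild types. Its change of 0.88 ± 0.22 (limma adjusted p = 0.0145; 0.45 with slide as a block) was matched by 0.64 ± 0.21 at a second probe (adjusted p over all probes = 0.0447). Nmu, neuromedin U, a peptide that reduces feeding, had -4.49, -4.40 and -4.26 in knockout and -4.84, -5.53 and -5.50 in wild type. That is a change of 0.90 ± 0.29 (limma adjusted p = 0.0378), which was -0.18 in the slide-blocked fit. Ucn3, urocortin 3, a ligand of the second Crh receptor, had -4.28, -3.93 and -3.85 in knockout and -4.46, -4.99 and -4.61 in wild type (0.67 ± 0.20, limma adjusted p = 0.0291; 0.07 with slide as a block). The groups lay apart for all 3. Rln3 (relaxin 3, 0.44 ± 0.20), Ucn (urocortin, 0.12 ± 0.25), Crhbp (-0.02 ± 0.09) and Grp (gastrin-releasing peptide, -0.22 ± 0.11) did not pass.

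Over all members, the 3 knockout and 3 wild-type arrays of 12 weeks lay wholly apart for 24 of 39 (61.5%), against 52.4% of all genes. Of the 18 called members, 9 kept their call without each of the 6 arrays of that age in turn: Vgf, Scg2, Pcsk1, Chga, Pcsk2, Pcsk1n, Crh, Cck and Kiss1. Gal and Pnoc lost it whichever of the 6 was left out.

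**Figure D4:**
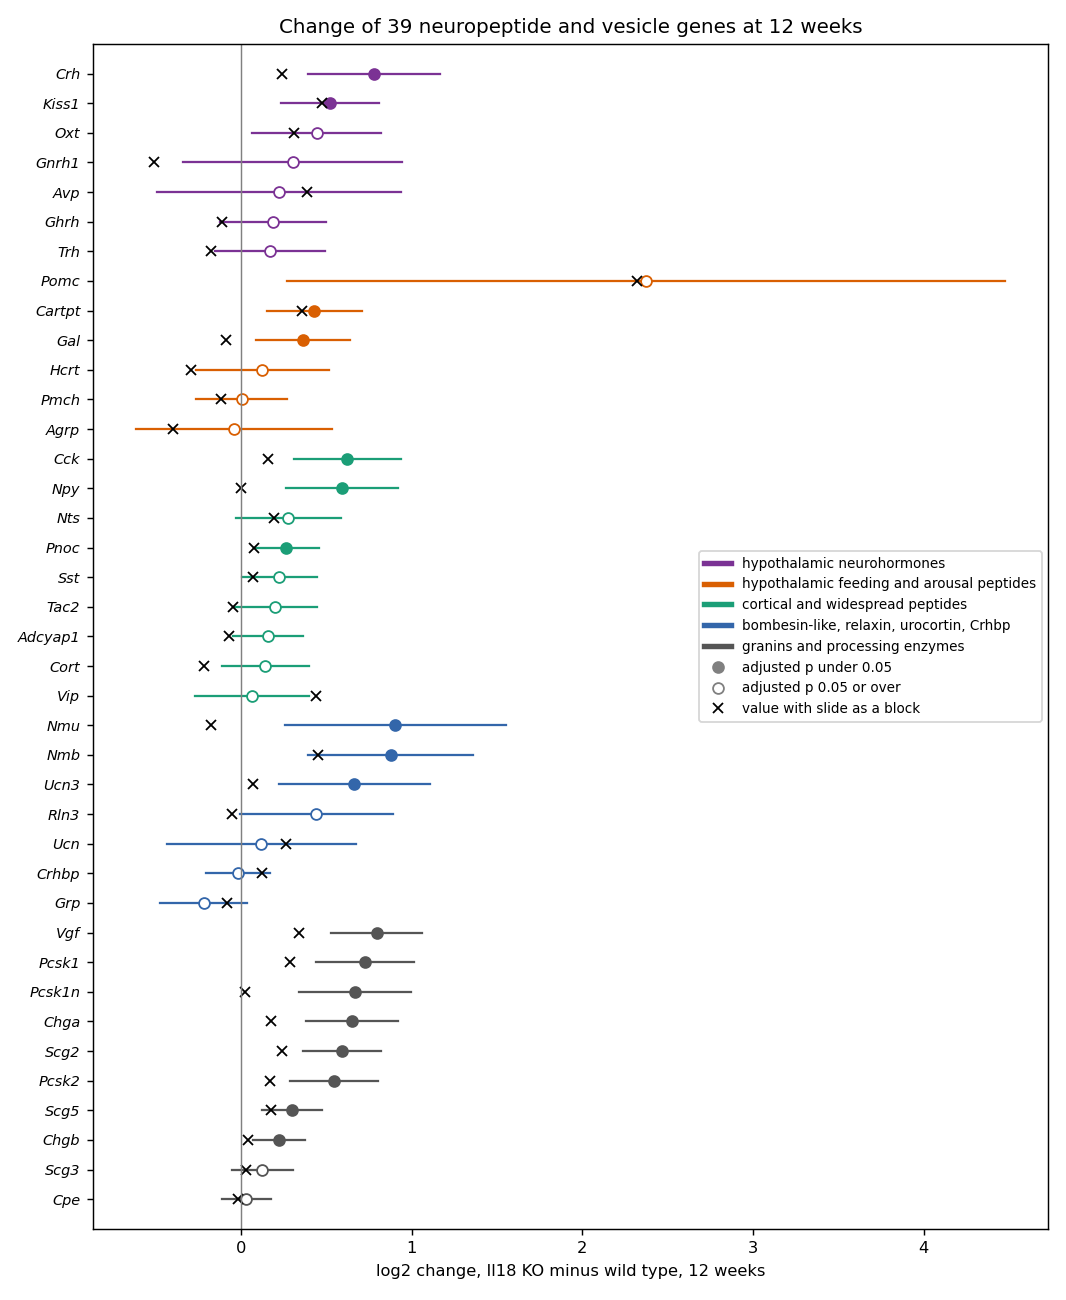
Log2 change at 12 weeks, knockout minus wild type, for the 39 measured members, coloured by class, with 95% intervals from limma and filled points where the adjusted p was under 0.05. Crosses give the same change with slide as a block; 18 points are filled, all right of 0, and the crosses of the granin and processing class lie nearer to 0 than the points, with 0.34 for Vgf and 0.03 for Pcsk1n.

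Genes around the peptide system were set beside the members, and their counts stand beside 18.5% of all genes called higher and 14.5% called lower. Of 25 other neuropeptide precursors measured, 4 rose and 2 fell at 12 weeks. Npw, neuropeptide W, rose by 0.70 ± 0.13 (limma adjusted p = 0.00617) and Pdyn, the dynorphin precursor, by 0.39 ± 0.09 (0.0127). Galp, galanin-like peptide, fell by 0.79 (limma adjusted p = 0.00714), and Nppc, C-type natriuretic peptide, fell by 0.39 (0.00921). Of 38 neuropeptide receptors, 13 rose and 3 fell. The somatostatin receptor Sstr3 rose by 0.46 ± 0.08 (limma adjusted p = 0.00525), the melanin-concentrating hormone receptor Mchr1 by 0.73 ± 0.14, the neurotensin receptor Ntsr2 by 0.47 ± 0.10 and the receptor Vipr2 by 0.43 ± 0.09. Of 42 other genes of the vesicle and of peptide processing, 13 rose and 1 fell. The fusion protein Vamp2 rose by 0.45 ± 0.07 (limma adjusted p = 0.00474), the vesicle GTPase Rab3a by 0.50 ± 0.10 and the convertase Furin by 0.54 ± 0.12, while the sulphotransferase Tpst1 fell by 0.80. Ptprn, a membrane protein of the vesicle named here after its value was seen, rose by 0.82 ± 0.19 (limma adjusted p = 0.0118). The median changes of these 3 lists were 0.19, 0.19 and 0.09, beside 0.02 over all genes.

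Markers of regions that a whole-brain dissection can hold in unequal parts were read on the same arrays. Their counts at 12 weeks stand beside 18.5% of all genes called higher and 14.5% called lower. Of 21 measured hypothalamic markers other than peptides, 3 rose (Six3, Hap1 and Tbx3) and 1 fell (Irs4) at 12 weeks, with a median change of -0.02. Their summed linear signal was 47.0 to 53.7 in the 12-week knockouts, 38.0 to 39.2 in the 12-week wild types, 35.7 to 44.1 in the 6-week knockouts and 40.3 to 43.3 in the 6-week wild types. Sim1 and Otp, which define the paraventricular region, were not above background on any array. Of 12 brainstem and spinal markers limma called none at 12 weeks (0 at an unadjusted p under 0.05), and their mean log2 signal was -2.23 to -2.08 in the 12-week knockouts and -3.70 to -2.39 in the 12-week wild types. It was -3.11, -3.89 and -1.88 on 6-week knockout replicates 1, 2 and 3, and -2.64 to -1.78 in the 6-week wild types. Counts of the other lists at 12 weeks stand beside the same shares of all genes. Of cerebellar markers 1 rose and 4 fell of 10 (median change -0.26), of thalamic and habenular markers 3 rose and 2 fell of 10 (0.10), of olfactory bulb markers 1 rose and 1 fell of 7 (0.26), and of striatal markers 2 rose and 1 fell of 9 (0.03). Of blood markers 4 of 6 rose (0.71), of oligodendrocyte markers 4 rose and 1 fell of 8 (0.33), of microglial markers 4 of 9 rose (0.24), of endothelial markers 2 of 8 rose (0.20) and of astrocyte markers 2 rose and 1 fell of 8 (0.03). The summed linear signal of the blood markers was 87.5 to 142.1 in the 12-week knockouts and 58.6 to 81.7 in the 12-week wild types. Of meningeal markers 1 rose and 1 fell of 9 (-0.05), of pineal markers 1 rose and 2 fell of 4 (-0.16), and of 9 choroid plexus markers limma called none (1 at an unadjusted p under 0.05). The part of these lists in the members' values was not tested.

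At 6 weeks, where slide column and genotype coincide, the knockouts and wild types were closer. The limma test called 0 of the 39 members, of which 7 had an unadjusted p under 0.05, and 0.925% of all genes. With slide column as a block it called 0 members and 0.408% of all genes, and the median change over the members was 0.05. Without a block the median change was 0.11 over the members and 0.04 over all genes, and 31 members had a higher and 8 a lower mean in knockout. Within slide 1 alone, which leaves out 6-week knockout replicate 3, the medians were 0.03 and 0.02. There 23 of the 39 members had a higher mean in knockout. Arrays of the groups lay apart for 7 of 39 members (17.9%), against 23.7% of all genes. The lowest p belonged to Nmb, with 1.47, 1.37 and 1.85 in the 6-week knockouts and 0.60, 0.36 and 1.26 in the 6-week wild types. The groups lay apart, and the change of 0.82 ± 0.22 did not pass (limma adjusted p = 0.104). It passed without wild-type replicate 3, at 1.08 (adjusted p = 0.0363), and with normexp background correction, at 0.88 (adjusted p = 0.0439).

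Avp was the member with the lowest value relative to wild type at 6 weeks. It had 0.94, 0.05 and 0.33 in the 6-week knockouts and 1.69, 1.19 and 1.22 in the 6-week wild types. The groups did not overlap, and the change was -0.93 ± 0.32 (limma adjusted p = 0.176). It was -0.88 within slide 1 alone and -1.33 with slide column as a block. Its neighbour Oxt had 3.06, 2.27 and 2.80 in knockout and 2.97, 2.72 and 2.65 in wild type, where the knockout range enclosed the wild-type range (-0.07 ± 0.17, limma adjusted p = 0.838). Agrp had -2.45, -2.58 and -2.15 in knockout and -1.58, -1.42 and -2.49 in wild type. Here 2 of the 3 wild types were above all knockouts and 1 was within their range (-0.56 ± 0.26, limma adjusted p = 0.277). Crh had 0.78, 0.49 and 1.17 in knockout and 0.13, 0.54 and 0.62 in wild type, with overlap (0.38 ± 0.17, limma adjusted p = 0.277). Trh (1.70, 1.70 and 2.05 in knockout, 1.54, 1.60 and 1.94 in wild type) gave 0.12 ± 0.15. Hcrt (2.71, 2.27 and 2.90 in knockout, 2.83, 2.82 and 2.48 in wild type) gave -0.08 ± 0.18. Pmch (2.57, 2.55 and 2.68 in knockout, 2.55, 2.78 and 2.25 in wild type) gave 0.07 ± 0.12, and Pomc (0.59, 0.58 and 0.64 in knockout, 0.35, 0.75 and 0.62 in wild type) 0.03 ± 0.95. For these 4 the groups overlapped.

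Chgb was the clearest granin at 6 weeks, with 6.76, 6.66 and 6.89 in the 6-week knockouts, against 6.54, 6.55 and 6.53 in the 6-week wild types. The groups lay apart, and the change was 0.23 ± 0.07 (limma adjusted p = 0.137), or 0.16 with slide column as a block. All 10 granin and processing genes had a higher mean in the 6-week knockouts, with a median of 0.13. Within slide 1 alone the median was 0.03 and 4 of the 10, Vgf, Chga, Pcsk1 and Pcsk2, had a lower mean in knockout. Quantile normalization gave a lower mean for Chga, Cpe and Scg5. Of 16 immediate early genes, which neurons switch on within minutes of activity, 7 rose and none fell at 6 weeks. Over all genes 0.547% were called higher and 0.377% lower at that age. Of the same 16 genes 2 rose and 7 fell at 12 weeks, beside 18.5% and 14.5% of all genes. Fosb gave 1.24 ± 0.11 at 6 weeks (limma adjusted p = 0.00081), and Atf3 1.62 ± 0.12 at 6 weeks and -0.89 ± 0.12 at 12 weeks. The direction of that list at 12 weeks is opposite to that of the 18 called members, and a link between them was not tested.

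With age, wild-type brains showed no called member (7 at an unadjusted p under 0.05), where limma called 0.638% of all genes. The median difference between 12 and 6 weeks was 0.01 over the members, and arrays lay apart for 10 of 39 (25.6%), against 24.8% of all genes. The lowest p belonged to Scg5, with 5.25, 5.31 and 5.45 in the 12-week wild types and 5.68, 5.60 and 5.50 in the 6-week wild types (-0.25 ± 0.08, limma adjusted p = 0.177). Nmu gave -0.93 ± 0.29 and Nmb 0.67 ± 0.22, neither of which passed.

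In knockout brains 1 of 39 members (2.56%) was called with age, and it was higher at 12 weeks, beside 2.01% of all genes called and 1.09% called higher. This was Vgf, with 6.11, 6.13 and 6.17 in the 12-week knockouts and 5.43, 5.16 and 5.75 in the 6-week knockouts. The 12-week arrays lay above the 6-week arrays, and the change was 0.69 ± 0.12 (limma adjusted p = 0.035). Arrays lay apart for 13 of 39 members (33.3%), against 26.3% of all genes, and 17 members had an unadjusted p under 0.05. The count depended on 1 array: without 6-week knockout replicate 3, the one on slide 2, limma called 17 members higher at 12 weeks, beside 7414 of 26495 genes, and with slide as a block it called none among 19 genes. The median change over the members was 0.27, and it was 0.38 without that array and 0.02 with slide as a block.

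The difference between the genotype effects at 12 and at 6 weeks was tested as an interaction. No member passed (8 at an unadjusted p under 0.05), where limma called 0.189% of all genes. The lowest p was that of Vgf (0.68 ± 0.17, limma adjusted p = 0.123), followed by Chga (0.62 ± 0.17, 0.137), Pcsk1 (0.59 ± 0.18, 0.161) and Nmu (1.28 ± 0.41, 0.166). Avp gave 1.15 ± 0.46 (limma adjusted p = 0.215), with the knockout below wild type at 6 weeks and within its range at 12 weeks. Without 6-week knockout replicate 3, 9 members were called, 6 of them in the granin and processing class, beside 17.8% of all genes in the same fit.

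Whether hypothalamic peptides vary together from brain to brain was asked of each array's deviation from its group mean, over the 12 arrays. The closest of 12 pairs tested was that of the neighbouring genes Oxt and Avp, whose Pearson r was 0.74 (exact permutation p = 0.00463 over 1296 orders of arrays within groups, two-sided; adjusted over the 12 pairs 0.0556). Spearman's rho was 0.79 (exact permutation p = 0.00772, adjusted 0.0463). The r was 0.743 without the 2 arrays farthest from the Oxt median, 0.78 within slide 1, and 0.64 to 0.84 with each array left out. Oxt and Avp were together highest in their group on 6-week knockout replicate 1 (0.35 and 0.50 above the group mean), 6-week wild-type replicate 1 (0.19 and 0.33), 12-week knockout replicate 2 (0.05 and 0.20) and 12-week wild-type replicate 2 (0.13 and 0.75). The smallest p this design allows is 0.00077.

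Crh and Trh gave r = 0.71 (exact permutation p = 0.0278, adjusted 0.111) and rho = 0.76 (exact permutation p = 0.00694, adjusted 0.0463). Which cells of the whole brain gave the signal of either gene was not tested. The r of Crh and Trh was 0.69 without the 2 farthest arrays and 0.65 within slide 1. Hcrt and Pmch, of neighbouring cells of the lateral hypothalamus, gave r = 0.62 (exact permutation p = 0.0224, adjusted 0.111) and rho = 0.72 (exact permutation p = 0.0177, adjusted 0.071). The r was 0.52 without the 2 farthest arrays and 0.64 within slide 1. No pair passed on Pearson's r after adjustment, and the Oxt and Avp and the Crh and Trh pairs passed on Spearman's rho. Oxt and Hcrt gave r = 0.69 (exact permutation p = 0.0949, adjusted 0.228), which was 0.34 with the most influential array left out. Agrp and Pomc, the opposed feeding signals of the arcuate nucleus, gave r = 0.20 (exact permutation p = 0.259, adjusted 0.444), and Pomc and Cartpt gave -0.39 (exact permutation p = 0.594, adjusted 0.848), which was 0.41 without the 2 arrays farthest from the Pomc median.

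**Figure D5:**
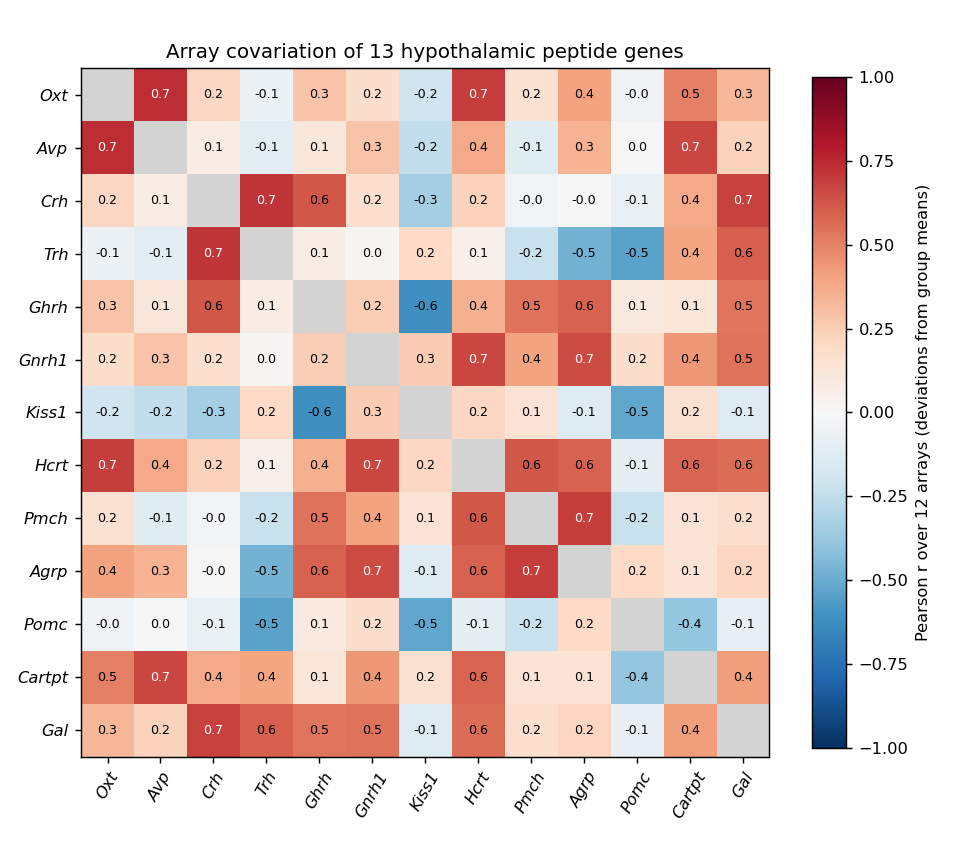
Pearson r of deviations from group means over 12 arrays for each pair of the 13 measured hypothalamic members, printed to 1 decimal, with red for positive and blue for negative r. The highest r is that of Oxt and Avp (0.74) and the lowest that of Ghrh and Kiss1 (-0.61).

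As a description, the median r over the 78 pairs of the 13 hypothalamic members was 0.20, from -0.61 to 0.74, with 57 pairs above 0. Over the 45 pairs of the granin and processing class it was 0.51, with 43 above 0, and over the 36 pairs of the cortical and widespread peptides 0.45. These pairs share the same arrays, slides and scaling. On 6-week knockout replicate 3, the array on slide 2, 12 of 13 hypothalamic members and 10 of 10 granin and processing genes were above the group mean. On 6-week knockout replicate 2 it was 1 of 13 and 0 of 10. Among the 12-week knockouts, 10 of 13 hypothalamic members were above the group mean on replicate 2 and 3 of 13 on replicate 1.

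The genes of the whole table most like each of 4 hypothalamic peptides, by the same r over 12 arrays, were Dapl1 (0.97), Thbd (0.96) and Gipr (0.94) for Oxt. For Avp they were C130026L21Rik (0.91), Nnmt (0.90) and C79130 (0.89). For Hcrt they were Cables2 (0.95), Cd200 (0.95) and Unc5a (0.95), and for Pmch Foxq1 (0.97), Oca2 (0.95) and TC1700876 (0.95). No other member was among them. These are the highest of 26495 correlations and are given as a description.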

How the data were processed

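Total RNA of 12 whole brains was labelled with Cy3 and hybridised to one-colour arrays, per the labels' protocols. The deposited files hold spot intensity values that Agilent Feature Extraction 10.7.3.1 had background-subtracted, per the submitters' processing notes and the file headers. The authors' deposited table of the same arrays held intensity values within 0.498% of these. Other columns used, per the file headers, are detection, saturation and outlier marks and probe names.

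Of 62976 spots, 59305 were not controls. Spots of a probe were averaged as log2 intensity after leaving out outlier spots (107 to 220 an array, none saturated), and each array's log2 75th percentile was subtracted. The 75th percentile lay between 890 and 1188 intensity units. Of 55681 probes, 37198 were well above background on all 3 arrays of a group, which gave 26495 genes with 1 probe each, the one with the highest mean (7091 genes had several). A limma fit (version 3.58.1, under R version 4.3.3) took a mean per group with 8 residual degrees of freedom, and its p-values were adjusted by Benjamini-Hochberg and read at 0.05. The number of arrays limits the precision. The labels call the 3 samples of a group biological replicates.

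The members, the gene lists and the tests were chosen with earlier results of these data known. By the rule for naming, array values were given for the 8 called members with the largest change per comparison and for Oxt, Avp, Crh, Trh, Hcrt, Pmch, Agrp and Pomc, and up to 4 called genes were named from each list. Array values of Scg2, Scg5, Chgb, Cck and Npy, and single values of other members, were added after they were seen. Probe positions are those of the files, in mm9. Slide, slide column and replicate blocks, other scalings, filters and settings of limma, and leaving out arrays were tried as alternatives. A result on 1 listed gene is not reported here.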

Additional observations from a re-analysis of the deposited data

Results flagged for a closer look

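Chga had every 12-week knockout array above every 6-week knockout array, with means of 5.65 ± 0.06 and 5.26 ± 0.29 (SD, n = 3 each), and every 12-week wild-type array below every 6-week wild-type array, with ranges of 4.92 to 5.05 and 5.20 to 5.27. The difference of the age changes, knockout minus wild type, was 0.62 and did not pass as an interaction (limma adjusted p = 0.137). The 6-week knockout array nearest to the 12-week ones is the one on slide 2.

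Probes of 4 pituitary hormones, which entered no comparison because no group had 3 arrays above background, gave signal on 12-week knockout replicate 3 above every wild-type array. The values were 3.72 for Prl, 2.86 for Gh, -1.58 for Fshb and -3.81 for Tshb, against at most -3.88, -4.41, -6.27 and -5.55 in the wild types of either age.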

How the results depend on the processing

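The 12-week result rests on how slide is treated. Of the 18 members called at 12 weeks, slide as a fixed block kept 0 (adjusted p from 0.601 to 0.999) and slide as a random block kept 0 (0.107 to 0.545); the genes called were 30 and 51, against 8741 without a block. Slide column as a block called 13 members (beside 22.4% of all genes), quantile normalization 15, of which 14 higher and 1 lower (29.6%), no filter on dim probes 13 (18.6%) and median scaling 20 (35.5%), and leaving out 1 array gave 11 to 19, with 11 without wild-type replicate 2. At 12 weeks slide as a fixed block turned the sign of 14 of the 39 members, slide as a random block of 5, quantile normalization of 5, and median scaling and slide column of 2 each. At 6 weeks, where slide column and genotype coincide, the block on slide column turned 14. Of called members and the 8 hypothalamic peptides given in full, the fixed block turned Gal (-0.088), Nmu (-0.18), Npy (-0.0019), Hcrt (-0.29), Pmch (-0.11) and Trh (-0.18), and the random block Hcrt (-0.053) and Pmch (-0.047). Among the same genes quantile normalization turned Chgb (-0.11), Pmch (-0.10) and Agrp (0.069), median scaling Agrp (0.081), and slide column Pmch (-0.022, and -0.0054 at 6 weeks). Without single arrays the 12-week change ran from -0.19 to 0.12 for Agrp, -0.015 to 0.60 for Avp and -0.038 to 0.058 for Pmch. At 6 weeks it ran from -0.22 to 0.093 for Hcrt, -0.25 to 0.15 for Oxt, -0.067 to 0.20 for Pmch and -0.082 to 0.12 for Pomc, and median scaling gave 0.013 for Hcrt and 0.023 for Oxt. The cause of these turns was not tested.

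At 6 weeks 1 member, Nmb, was called with normexp and without wild-type replicate 3, and 0 to 1 without single arrays. For age in knockouts, 0 members were called with slide as a fixed or random block, without a filter or with only the groups compared, 2 with normexp, quantile normalization or probes above background on all arrays, 6 with trend and robust, and 0 to 17 without single arrays. For the interaction 0 to 9 were called without single arrays. Leaving out replicate 3 of both knockout groups, chosen after seeing the data, gave 15 for age in knockouts, 9 for the interaction and 19 at 12 weeks. Genes called without single arrays ran from 77 to 262 at 6 weeks, 5190 to 10466 at 12 weeks, 30 to 395 and 6 to 7414 with age in wild types and knockouts, and 10 to 4719 for the interaction. At 6 weeks normexp called 595 genes, quantile normalization 471, median scaling 471 and only the groups compared 56, against 245.

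Replicate numbers are shared by all groups, but same-numbered arrays did not deviate together (r from -0.205 to 0.108, 2 of 18 pairs over 0.1), so they share only a number. With the replicate block 15 members and 7562 genes were called at 12 weeks, 0 members at 6 weeks and for the interaction, and 0 members and 31 genes with age in knockouts.

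Of the correlations, that of Pomc and Cartpt ran from -0.633 to 0.136 without single arrays, that of Oxt and Trh from -0.544 to 0.158, that of Oxt and Gal from -0.283 to 0.727 and that of Cck and Vip from -0.418 to 0.472. Gnrh1, Nmu, Ucn3 and Rln3 are dim probes, near the limit of detection.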

Other observations

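With slide as a block the 12-week change was 0.47 ± 0.24 for Kiss1 and 0.36 ± 0.23 for Cartpt, against 0.52 and 0.43 without it, and neither passed with the block (limma adjusted p = 0.664 and 0.732). Kiss1 read -1.59, -1.40 and -1.74 in the 12-week knockouts and -2.30, -2.14 and -1.85 in the 12-week wild types. It read -2.09, -1.83 and -1.91 in the 6-week knockouts and -2.21, -2.44 and -2.28 in the 6-week wild types. The groups lay apart at both ages, and the 6-week change was 0.37 ± 0.13 (limma adjusted p = 0.18), or 0.52 ± 0.15 at a second probe (adjusted p over all probes = 0.132). At the probe used, the 6-week change of Kiss1 was 0.06 ± 0.21 with slide column as a block. Both genes were picked out after their values were seen.

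Among the receptors, Vipr2, a receptor of vasoactive intestinal peptide and PACAP, was the 1 gene called at both ages, with 0.55 ± 0.09 at 6 weeks (limma adjusted p = 0.0277) and 0.43 ± 0.09 at 12 weeks (0.00958). Its ligands Vip and Adcyap1 were not called at 12 weeks, with 0.07 ± 0.15 and 0.16 ± 0.09. The receptors that fell at 12 weeks were those of neuropeptide Y (Npy2r, -0.51 ± 0.14), neuromedin B (Nmbr, -0.37 ± 0.11) and relaxin 3 (Rxfp3, -0.53 ± 0.16). Of their ligands, Npy and Nmb were called higher, but with slide as a block the changes were -0.0019 and 0.45 and neither passed (limma adjusted p = 0.999 and 0.788). These 3 were named after their values were seen.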
